A study of Arabidopsis thaliana with 6 samples.

Results

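WRKY genes encode plant transcription factors, named after a conserved run of amino acids in their DNA-binding domain. Members of the family were taken as probe sets that name exactly 1 gene with WRKY and a number as its symbol, with or without an AT prefix. This rule found 6 genes among the 13513 probe sets that name a single gene, where the gene table holds 67 genes with such a symbol, so most of the family was not analysed here. Each of the 6 genes had 1 probe set. One of them, WRKY42, had a signal under 86 on all 6 arrays, and the 5 others are WRKY6 (AT1G62300), WRKY20 (AT4G26640), WRKY22 (AT4G01250), WRKY47 (AT4G01720) and WRKY53 (AT4G23810). Another gene, ZAP1, carries WRKY1 only as a synonym and is not counted as a member.

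WRKY factors bind W boxes, short promoter elements with the core TTGAC, which many defence genes and many WRKY genes themselves carry. Several members are switched on quickly by pathogens, wounding, reactive oxygen or senescence, often through MAP kinase cascades, and others repress the same genes. By the structure of the WRKY domain and its zinc finger, WRKY20 belongs to group I, which carries an N-terminal and a C-terminal WRKY domain. WRKY6, WRKY42 and WRKY47 belong to group IIb, WRKY22 to group IIe and WRKY53 to group III, all with a single WRKY domain.

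All leaves came from the flu1-1 mutant of Arabidopsis thaliana in the Landsberg erecta ecotype, which lacks a negative regulator of chlorophyll synthesis, so mock and paraquat leaves both carry that mutation. Rosettes of 3-week-old plants in continuous light were sprayed with paraquat in 0.1% Tween or with 0.1% Tween alone (mock) and harvested 1, 2 or 4 h later, with 1 Affymetrix ATH1 array for each of the 6 combinations. Paraquat, or methyl viologen, diverts photosystem I electrons to oxygen, which gives superoxide. Sample titles give the dose as 20 mM and the protocol as 20 microM, and this was not settled here. A sample held leaves of 5 to 6 plants, and the RNA was a pool of 2 experiments, so no spread between experiments can be seen within a condition. No unsprayed or wild-type leaves were analysed here. Harvest hour, time since spraying and time of day therefore cannot be told apart, and in whole leaves fewer cells of a type cannot be told apart from less RNA per cell.

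The arrays had a common scale, with median signals of 157.7 to 162.0. Of 13 leaf markers, 2 had a probe set naming them alone, with rubisco activase (RCA) at 14414 to 16284 and the antenna gene LHCB4.2 at 3092 to 6699. In mock leaves LHCB4.2 read 3515, 3092 and 5066 at 1, 2 and 4 h, against 5806, 4810 and 6699 with paraquat. LHCB4.2 was thus higher with paraquat at each hour, while RCA was lower at 1 and 2 h and higher at 4 h. Of the other marker lists, the guard cell gene FMA lay at 249.3 to 320.0 and SPCH was below the floor of 86.2, the 40th percentile of all signals, on all arrays. The root gene EXPA7 passed that floor on 1 array, and no probe set naming 1 gene was found for the flower or seed lists. The 25S ribosomal RNA control read 307.7 in paraquat leaves at 1 h and 243.3 at 4 h, against 92.8 to 130.5 on the other 4 arrays.

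**Figure D1:**
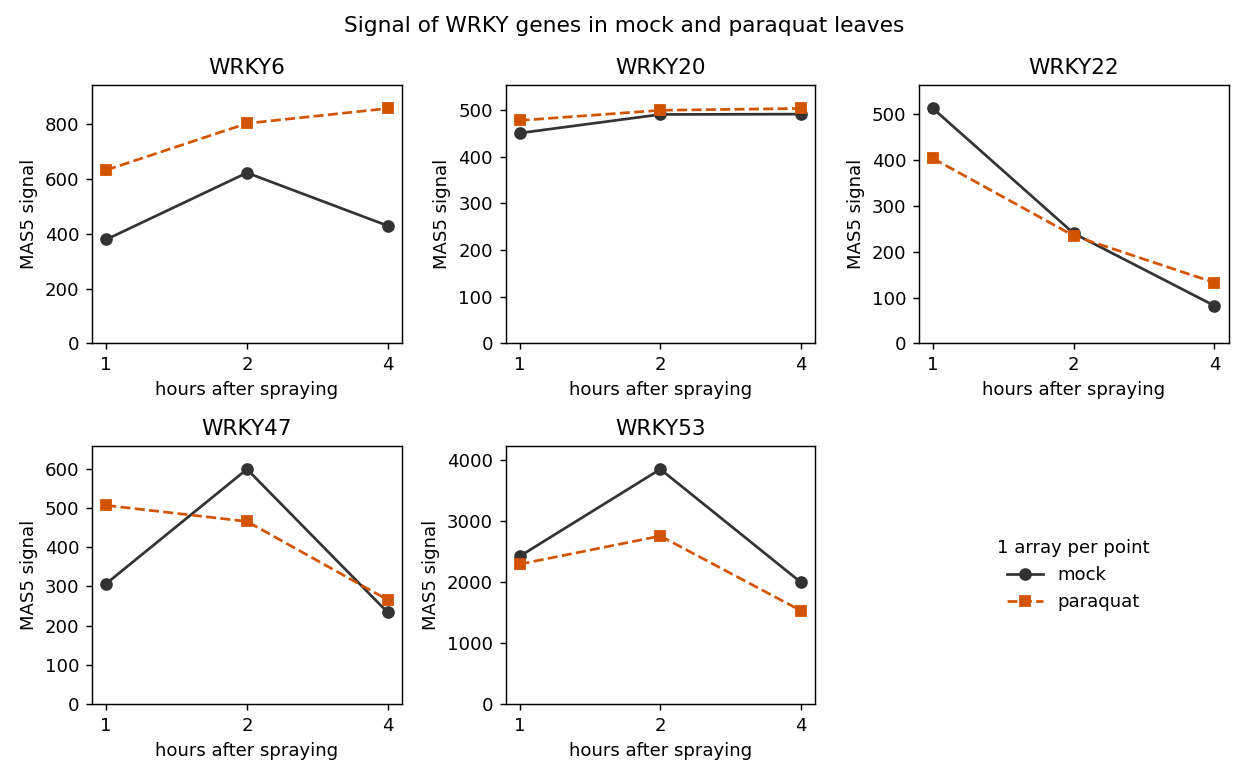
MAS5 signal on a linear axis from 0 against the hour after spraying (1, 2 and 4 h, evenly spaced) for WRKY6, WRKY20, WRKY22, WRKY47 and WRKY53. Circles with solid lines are mock arrays and squares with dashed lines are paraquat arrays, 1 array per point, so there are no error bars. WRKY22 goes down from 513.0 to 82.4 in mock leaves, WRKY20 stays between 450.1 and 502.9, and each paraquat signal of WRKY6 lies above each mock signal.

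The members differed widely in how much their own signal moved over the 6 arrays. WRKY22 spanned a 6.23-fold range from its lowest to its highest array, a larger span than that of 98.7% of the 13837 probe sets tested. Spans here are ratios of linear signals with nothing added, and the lowest WRKY22 signal, 82.4, lay below the floor of 86.2. WRKY47 spanned 2.56-fold, WRKY53 2.51-fold and WRKY6 2.26-fold, each above the median span of the tested probe sets. WRKY20 spanned 1.12-fold, and only 1.97% of tested probe sets had a smaller span. These spans hold the effects of hour, of treatment and of array noise together.

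The first comparison asked how the family changed with the hour after spraying. WRKY22, WRKY47 and WRKY53 fell from 2 to 4 h when averaged over mock and paraquat leaves, and WRKY22 also fell from 1 to 4 h. WRKY6 and WRKY20 passed no test between hours. The tests came from 1 limma fit of log2(signal + 34) with hour and treatment as factors on all 13837 probe sets, in which the 2 treatments stand in for replicates, and p-values were adjusted with the Benjamini-Hochberg method. From 2 to 4 h, 3 of the 5 members passed at an adjusted p under 0.05, all lower, against 4.39% of all tested probe sets lower and 9.5% in either direction. Between 1 and 4 h, 1 of 5 passed, lower, against 7.99% lower and 16.5% in either direction. From 1 to 2 h, limma called 0 of 5, against 5.92% of all, while 3 of 5 had an unadjusted p under 0.05, as did 20.1% of all tested probe sets.

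WRKY22 is known to act downstream of a MAP kinase cascade in the response to bacterial flagellin, and in senescence induced by darkness. Its signals in mock leaves were 513.0, 240.4 and 82.4 at 1, 2 and 4 h, and in paraquat leaves 404.0, 235.1 and 132.9. The order of the hours was the same in both treatments, and WRKY22 was the only one of the 5 members to go down at each step in both, a pattern shown by 8.09% of tested probe sets. Averaged over treatments, it fell by 1.81 ± 0.21 log2 units from 1 to 4 h (moderated SE, n = 2 treatments, limma adjusted p = 0.00085). Its difference between 2 and 4 h was -0.96 ± 0.21 (limma adjusted p = 0.025). The difference from 1 to 2 h was -0.85 ± 0.21 and just missed the threshold (limma adjusted p = 0.051), with -0.57 without the mock 1 h array. The mock signal at 4 h lay below the floor, so the size of the mock decrease depends on the pseudocount: the log2 ratio of 4 h to 1 h was -2.23, -2.52 with a pseudocount 4 times smaller and -1.57 with one 4 times larger. The fall from 2 to 4 h lost the threshold without the mock 2 h array (limma adjusted p = 0.10), without the mock 4 h array (0.097, with a difference of -0.62) and without the filter on low signals (0.11).

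WRKY53 is a regulator of leaf senescence whose transcript is known to be raised by hydrogen peroxide. Its signals in mock leaves were 2419, 3844 and 1992 at 1, 2 and 4 h, and in paraquat leaves 2291, 2751 and 1529. In both treatments it was highest at 2 h and lowest at 4 h, and it was the only one of the 5 members highest at 2 h in both. From 2 to 4 h it fell by 0.88 ± 0.12 log2 units averaged over treatments (limma adjusted p = 0.0061). This call was kept under all 12 alternatives tried, with adjusted p from 0.0053 to 0.049. The difference from 1 to 2 h was 0.46 ± 0.12 (limma adjusted p = 0.072), and that from 1 to 4 h was -0.42 ± 0.12 (limma adjusted p = 0.051). The first was 0.29 without the mock 1 h array (limma adjusted p = 0.42), and the second -0.25 without the paraquat 1 h array (0.32).

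WRKY47, a group IIb factor, had mock signals of 307.2, 598.3 and 233.6 at 1, 2 and 4 h. Its paraquat signals were 506.2, 465.3 and 265.7, so a peak at 2 h was seen in mock leaves and not in paraquat leaves, while 4 h was lowest in both treatments. From 2 to 4 h it fell by 0.99 ± 0.22 log2 units (limma adjusted p = 0.027). This fall lost the threshold without the mock 2 h array (limma adjusted p = 0.24, with a difference of -0.61), without the mock 4 h array (0.084), without the paraquat 4 h array (0.061), without the filter (0.11) and without the variance trend (0.056). Between 1 and 2 h it differed by 0.39 ± 0.22 (limma adjusted p = 0.37), and this value ran from 0.01 to 0.77 when single arrays were left out.

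WRKY6 is known from senescence and pathogen responses and, with WRKY42, as a repressor of the phosphate exporter gene PHO1. In mock leaves its signals were 378.5, 621.2 and 428.4 at 1, 2 and 4 h, and in paraquat leaves 631.0, 800.9 and 855.3. Mock leaves were highest at 2 h and paraquat leaves at 4 h. Averaged over treatments its differences were 0.50 ± 0.16 from 1 to 2 h (limma adjusted p = 0.12), -0.21 ± 0.16 from 2 to 4 h (limma adjusted p = 0.49) and 0.29 ± 0.16 from 1 to 4 h (limma adjusted p = 0.28). The difference from 1 to 2 h was 0.26 without the mock 2 h array, and that from 1 to 4 h was 0.08 without the paraquat 4 h array and 0.50 without the mock 4 h array. WRKY20 had mock signals of 450.1, 490.0 and 490.7 at 1, 2 and 4 h and paraquat signals of 477.2, 499.0 and 502.9. Its 3 differences between hours were 0.09, 0.01 and 0.09 log2 units, with 95% intervals that lay between -0.28 and 0.38.

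**Figure D2:**
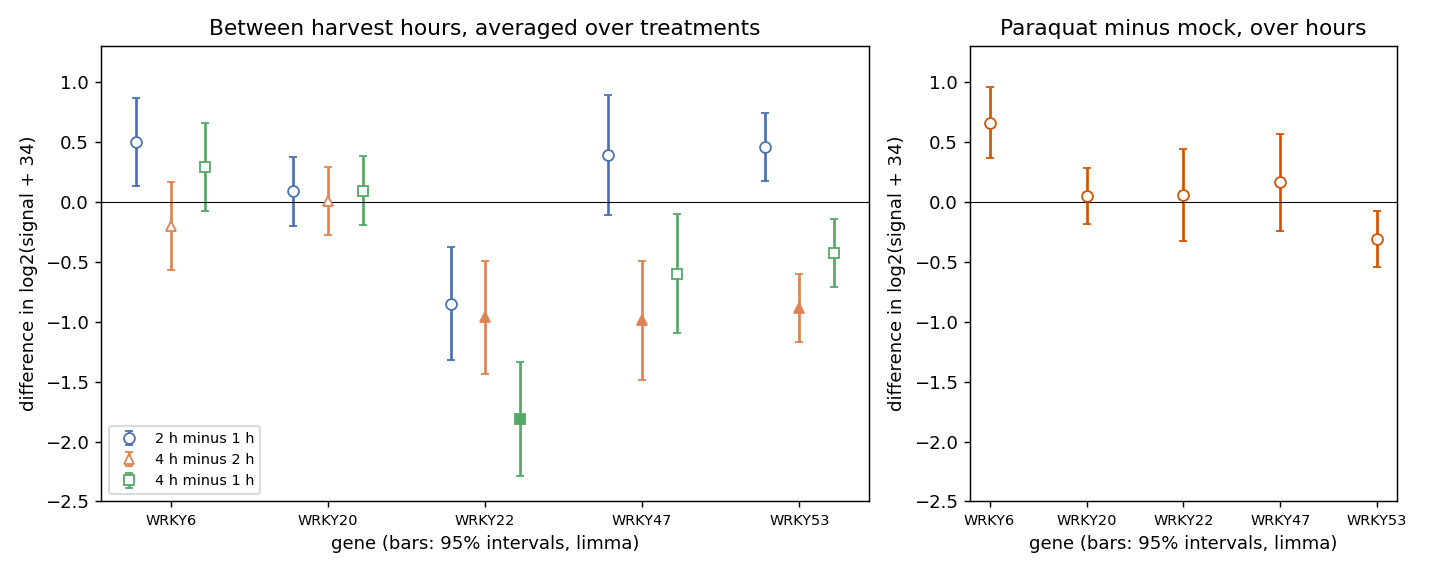
Differences in log2(signal + 34) for the 5 members, with 95% intervals from limma. The left panel shows the 3 pairs of hours averaged over mock and paraquat leaves (circles, triangles and squares), and the right panel shows paraquat minus mock averaged over the 3 hours. Filled symbols passed an adjusted p of 0.05: WRKY22, WRKY47 and WRKY53 from 2 to 4 h, and WRKY22 from 1 to 4 h.

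Within mock leaves alone there is 1 array per hour and no test. Of the 5 members, 3 were highest at 2 h in mock leaves (WRKY6, WRKY47 and WRKY53), as were 31.8% of tested probe sets. In paraquat leaves 1 of 5 was highest at 2 h, as were 34.9% of all. The same WRKY22, WRKY47 and WRKY53 were lowest at 4 h in both treatments, a pattern shown by 21.0% of tested probe sets. From 1 to 2 h in mock leaves no member reached a 2-fold difference on the log2(signal + 34) scale, against 3.18% of probe sets that passed the floor in either array, with WRKY22 at -0.995 and WRKY47 at 0.89 as the outermost. Between 2 and 4 h in mock leaves, WRKY22 (-1.24) and WRKY47 (-1.24) were at least 2-fold lower, against 1.8% of probe sets, and WRKY53 stood at -0.94, WRKY6 at -0.50 and WRKY20 at 0.00. The median of the 5 members at that step was -0.94, beside -0.02 over all probe sets. In paraquat leaves the same step gave -0.69 for WRKY22, -0.74 for WRKY47 and -0.83 for WRKY53, none at least 2-fold (0.818% of probe sets were at least 2-fold lower), and 0.09 for WRKY6. From 1 to 4 h, 1 member, WRKY22, was at least 2-fold lower in mock leaves (3.81% of probe sets) and in paraquat leaves (2.75%), where its log2 ratio was -1.39.

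The second comparison set paraquat against mock leaves. None of the 5 members passed the test of the effect averaged over hours: limma called 0 of 5, against 0.318% of the 13837 probe sets. At an unadjusted p under 0.05 there were 2 members, WRKY6 on the higher and WRKY53 on the lower side, and 10.3% of all probe sets. The median of the 5 mean log2 ratios was 0.06, beside -0.01 over all tested probe sets. At single hours no member was at least 2-fold different, against 0.781% of probe sets at 1 h, 0.739% at 2 h and 1.75% at 4 h. Since the 3 hours share no array, each ratio below rests on its own array pair.

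WRKY6 had the highest ratio of the 5 members at each hour. Its log2 ratios were 0.69, 0.35 and 0.94 at 1, 2 and 4 h, or 1.61-fold, 1.27-fold and 1.92-fold, and 1.61%, 9.88% and 1.44% of probe sets had a higher ratio at these hours. All 3 paraquat signals, from 631.0 to 855.3, lay above all 3 mock signals, from 378.5 to 621.2, as was so for 3.32% of tested probe sets. The mean ratio was 0.66 ± 0.13 (moderated SE, n = 3 hours, 95% interval 0.36 to 0.96, limma adjusted p = 0.12), and 117 of 13837 tested probe sets had a higher one. Without 2 h it was 0.82 and passed (limma adjusted p = 0.047), and over all 10 alternatives the adjusted p ran from 0.047 to 1.00. The ratio was larger at 1 and 4 h, the hours at which the paraquat array also had the higher 25S ribosomal RNA signal, than at 2 h, where that signal was 111.4 in paraquat and 130.5 in mock leaves. The part of this in the ratio was not tested.

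WRKY53 lay the other way at each hour. Its log2 ratios were -0.08, -0.48 and -0.37 at 1, 2 and 4 h, with a mean of -0.31 ± 0.10 (95% interval -0.54 to -0.08, limma adjusted p = 0.33). Paraquat lay below mock at all 3 hours for 16.5% of tested probe sets, and above it, as for WRKY6 and WRKY20, for 15.3%. The signals of the 2 treatments overlapped, since the paraquat signal of 2751 at 2 h was above the mock signals of 1 and 4 h.

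WRKY22 and WRKY47 changed sign between hours. The log2 ratio of WRKY22 went from -0.32 at 1 h through -0.03 at 2 h to 0.52 at 4 h, where the paraquat signal of 132.9 stood against 82.4 in mock leaves. That 4 h ratio ran from 0.30 to 0.64 over the pseudocounts and scalings tried. At 4 h, as at 1 h, the paraquat array also had the higher 25S ribosomal RNA signal, whose part was not tested. WRKY47 had 0.66, -0.34 and 0.16 at 1, 2 and 4 h, and at 1 h 1.87% of probe sets had a higher ratio, on the paraquat array with the highest 25S ribosomal RNA signal, whose part was not tested. The mean ratios were 0.06 ± 0.17 for WRKY22 (95% interval -0.33 to 0.44, limma adjusted p = 0.95) and 0.16 ± 0.18 for WRKY47 (95% interval -0.24 to 0.57, limma adjusted p = 0.81). Without 4 h that of WRKY22 was -0.17, and without 1 h that of WRKY47 was -0.09. WRKY20 stood at 0.08, 0.02 and 0.03, with a mean of 0.05 ± 0.10 (95% interval -0.19 to 0.28, limma adjusted p = 0.92). ZAP1, the gene outside the rule that has WRKY1 as a synonym, had a mean ratio of 0.00 ± 0.10 with signals of 751.4 to 913.4.

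**Figure D3:**
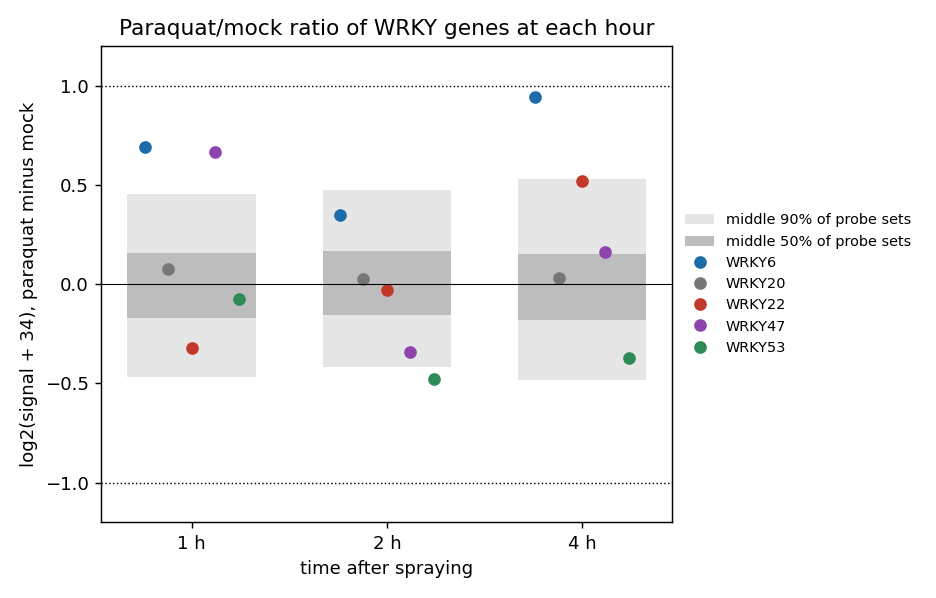
Paraquat minus mock log2(signal + 34) at 1, 2 and 4 h for the 5 members, 1 array pair per hour and no error bars. Dark and light grey bands hold the middle 50% and 90% of probe sets that passed the floor in either array, and dotted lines mark a 2-fold difference. WRKY6 lies above the light band at 1 h (0.69) and 4 h (0.94), WRKY47 above it at 1 h (0.66) and WRKY53 below it at 2 h (-0.48), and no point crosses a dotted line.

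The third comparison asked whether the paraquat/mock ratio changed steadily with hour, with a term for treatment times log2 hour. Limma called 0 of the 5 members, against 0.773% of tested probe sets, and 1 member, WRKY22, had an unadjusted p under 0.05, as did 12.2% of all. Its slope was 0.42 ± 0.15 log2 units per doubling of time, which did not pass (95% interval 0.09 to 0.75, limma adjusted p = 0.27). The slopes of the others were 0.13 ± 0.14 for WRKY6, -0.02 ± 0.12 for WRKY20, -0.15 ± 0.10 for WRKY53 and -0.25 ± 0.18 for WRKY47. With 1 array pair per hour, a changing ratio and a single odd array cannot be told apart.

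Genes linked to WRKY factors were read from a list of 50 entries covering MAP kinases, VQ-motif proteins that bind WRKY factors, salicylic acid and jasmonic acid defence genes and camalexin synthesis genes. Only 5 had a probe set naming them alone, and none of the MAP kinase or camalexin genes did. The 3 entries listed as VQ-motif proteins carry only locus names in the gene table. Of these 5 genes, 1 was below the floor on all arrays. The other 4 were called in 1 or more of the 5 limma tests or were at least 2-fold different between treatments at some hour. PDF1.2 was among the 4 only through the 2 h pair. There only the mock array passed the floor, so only a lower paraquat signal could be counted. With a pseudocount 4 times larger the count was 3. It was also 3 without the filter on low signals, where AT1G78410 was no longer called. Among probe sets that exceeded the floor on 1 array or more, 21.1% met the same either-or rule, and the 4 genes are too few to read a share from.

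AT2G22880 had mock signals of 203.0, 138.0 and 28.8 at 1, 2 and 4 h and paraquat signals of 255.3, 265.4 and 309.3. Mock leaves went down with hour and paraquat leaves did not, and the mock signal at 4 h was below the floor. Its log2 ratios were 0.29, 0.80 and 2.45 at 1, 2 and 4 h, and its slope of 1.08 ± 0.19 per doubling passed (limma adjusted p = 0.019). That slope was not called without the filter on low signals (limma adjusted p = 0.47) or without the variance trend (0.25). With a pseudocount 4 times larger the slope was 0.61. Its mean ratio was 1.18 ± 0.34 (limma adjusted p = 0.27), with 0.54 without 4 h and 1.62 without 1 h. The 25S ribosomal RNA signal was higher with paraquat at 1 h (ratio 0.29) and 4 h (ratio 2.45), but not at 2 h (ratio 0.80). The part of this in these ratios was not tested.

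AT1G78410 had mock signals of 384.5, 1134 and 849.9 and paraquat signals of 529.3, 934.8 and 651.0. Like WRKY53 it was highest at 2 h in both treatments, but it was lowest at 1 h, not at 4 h. Averaged over treatments it rose by 1.13 ± 0.19 log2 units from 1 to 2 h (limma adjusted p = 0.013), and it was 0.68 ± 0.19 higher at 4 h than at 1 h (limma adjusted p = 0.046). The first call was lost without the mock 1 h array (0.079) and without the filter (0.077), and the second under 6 of 12 alternatives, among them without the mock 1 h array (0.35, a difference of 0.31) and without the mock 4 h array (0.25, a difference of 0.46).

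SAG101, a partner of the immune regulator EDS1, had signals of 575.3, 474.2 and 330.6 in mock leaves and 610.7, 476.8 and 296.7 in paraquat leaves. It went down at each step in both treatments, and from 1 to 4 h it fell by 0.85 ± 0.13 log2 units (limma adjusted p = 0.0037), a call kept under all 12 alternatives tried. From 2 to 4 h it fell by 0.55 ± 0.13 (limma adjusted p = 0.037), and that call was lost under 8 of 12 alternatives, including each of the 6 fits that left out 1 array, with adjusted p of up to 0.24. PDF1.2, a defensin gene of the jasmonic acid and ethylene response, passed the floor only in mock leaves at 2 h, with a signal of 93.0 against 26.1 with paraquat (log2 ratio -1.08). That mock signal lay just above the floor of 86.2. With a pseudocount 4 times larger the pair was no longer at least 2-fold different. The other 4 signals of PDF1.2 lay between 35.3 and 52.7.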

How the data were processed

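Signal intensity was measured on 6 ATH1 arrays, 1 per treatment and hour. The deposited table holds linear intensities made by the authors with MAS5, per the submitters' processing notes; its version is not given in the sources used here. Each array had a mean of 500.04 after 2% was trimmed from each end, so signals were on a common scale. Differences in total RNA between samples cannot be read from them. Detection calls were not analysed here, and arrays allow no depth-based interval: their number limits the precision.

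The 64 control probe sets were left out. Values were used as log2(signal + 34), where 34 is the rounded 25th percentile, which understates the change of dim probe sets. Limma 3.58.1 in R 4.3.3 (lmFit, eBayes with variance trend, two-sided, Benjamini-Hochberg, threshold 0.05) was run on 13837 probe sets that passed the floor in at least 3 arrays, with hour and treatment as factors (2 residual degrees of freedom), or with treatment by log2 hour added (1 residual degree of freedom). Hours or treatments stand in for replicates, so a real difference between them counts as error. At single hours, at least 2-fold counts were made without a test. Gene names came from the probe annotation, updated by gene number to TAIR10.1 symbols. Every member with a signal of 86 or more on at least 1 array was named with all its signals, and linked genes where called or at least 2-fold different. The members and lists were chosen with earlier results of these data known. Alternatives were the block, filter, floor, variance trend, pseudocount, scaling, and leaving out hours or, added after seeing the data, single arrays.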

Additional observations from a re-analysis of the deposited data

Results flagged for a closer look

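The paraquat/mock log2 ratio of AT2G22880 differed between hours by the slope test, rising by 1.08 per doubling. That call was lost without the filter on low signals (limma adjusted p = 0.47) and without the variance trend (0.25). With 1 array pair per hour a changing effect and a single odd array cannot be told apart. Its mock signal of 28.8 at 4 h was below the floor. No WRKY gene met this test.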

How the results depend on the processing

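Among counts of WRKY genes, 65 of 82 alternative values equalled the reported count or stayed within 1.5 times it. Most of these 65 were 0 beside a reported count of 0, so this share says little about the calls that were made. From 1 to 2 h, 1 gene in place of 0 was called with a pseudocount 4 times larger, after quantile normalization and after centring on the 75th percentile, which was WRKY22 each time. From 2 to 4 h, 1 gene in place of 3 was called without the filter on low signals. From 1 to 4 h, 2 genes in place of 1 were called after quantile normalization and with centring on the 75th percentile, WRKY53 being the added one. In mock leaves, 1 gene in place of 0 was at least 2-fold different from 1 to 2 h with a pseudocount 4 times smaller and with centring on the 75th percentile, and 0 in place of 2 from 2 to 4 h with a pseudocount 4 times larger. The averaged paraquat effect called between 0 and 1 genes when an hour was left out. Leaving out single arrays gave 0 to 3 calls from 1 to 2 h, 1 to 3 from 2 to 4 h and 1 to 3 from 1 to 4 h. The 3 calls from 1 to 2 h (WRKY6, WRKY22 and WRKY53) came without the mock 4 h or the paraquat 4 h array. The single call from 2 to 4 h, WRKY53, came without the mock 2 h or the mock 4 h array. The 3 calls from 1 to 4 h came without the mock 1 h array (WRKY22, WRKY47 and WRKY53), and 2 calls without the mock 2 h or the paraquat 2 h array (WRKY22 and WRKY47). Signs turned for values near 0. The mean paraquat ratio of WRKY22 ran from -0.17 to 0.25 and that of WRKY47 from -0.089 to 0.41 when an hour was left out, and the 2 to 4 h difference of WRKY20 from -0.0095 to 0.022 and of WRKY6 from -0.44 to 0.027 when an array was left out. The cause was not tested. Over all probe sets, limma called 35 higher and 9 lower for the averaged effect, 0 without blocking on time (375 had an unadjusted p under 0.05) or the filter (1821), and 1 without the variance trend. For the change with hour it called 59 and 48, 0 without the filter (1958) or the variance trend (1452). Another probe set per gene could not be tried, since each WRKY gene had 1. Mock and paraquat arrays were paired by hour in the reported fit. Without that block no probe set was called, and each of the 5 members had a limma adjusted p of 1.00. The mean ratio of WRKY6 stayed at 0.66 there, with an unadjusted limma p of 0.016. The labels give no replicate numbers, so no other pairing was tried. Signals below the floor, such as WRKY22 in mock leaves at 4 h, limit how exactly a ratio is known.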
